A study of Homo sapiens with 12 samples.

Results

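The genes of the proteasome were described in isogenic MCF-10A cultures, as all probe sets whose symbol starts with PSMA, PSMB, PSMC, PSMD, PSME, PSMF or PSMG followed by a number, without the immunoproteasome subunits PSMB8 and PSMB9. The rule gave 47 genes, with 1 probe set each, of 17687 genes that have a probe set of their own. MCF-10A is an established line of immortalized but not tumorigenic epithelial cells from human breast. One line carried the HER2 L755S mutation and the other the PIK3CA E545K mutation, and each was grown alone (single cultures, 4 arrays each) or together with the other (co-culture, 4 arrays). Every culture was kept at physiologic EGF, with no further treatment, for 7 to 14 days, until the co-cultures held about 75% HER2 L755S and 25% PIK3CA E545K cells by droplet digital PCR. The 4 arrays of a group are parallel cultures per the labels, so p-values measure the spread between such cultures. Both mutations act in the same growth factor pathway, at the receptor HER2 and at the catalytic subunit of PI3K. The parental line was not analysed here, and how many clones stand behind each mutant is not given in the sources used here. A difference therefore cannot be assigned to one line or the other.

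The proteasome degrades proteins tagged with ubiquitin. Its core particle is a barrel of outer alpha rings and inner beta rings, and the beta subunits PSMB5, PSMB6 and PSMB7 carry the proteolytic sites. A regulatory particle caps the barrel: its base unfolds the substrate with a ring of ATPases, and its lid removes the ubiquitin chain. Interferon exchanges the catalytic subunits for PSMB8, PSMB9 and PSMB10 (the immunoproteasome) and induces the activator subunits PSME1 and PSME2, while the factor NFE2L1 drives the genes of the standard subunits together when proteasome activity is short.

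Of the 47 members, 45 passed the filter on low signal (above the 30th percentile of the array on at least 4 arrays). The exceptions were PSMA8, an alpha subunit of the testis, and PSMB11, a beta subunit of the thymus, with 3.05 to 3.35 and 3.74 to 3.97 as group means on the log2 scale. That is close to the median of the negative control probe sets of an array, which was 3.39 to 3.79. By group it was 3.63 to 3.79 on the HER2-mutant arrays, 3.39 to 3.57 on the PIK3CA-mutant arrays and 3.50 to 3.58 in the co-culture. Their 95th percentile was 6.73 to 7.12, 6.32 to 6.39 and 6.37 to 6.66. On both measures every HER2-mutant array was above every other. The part of this background in the results below was not tested. Of the 45, 42 were above the threshold on all 12 arrays. The others, PSMB10, PSMC3IP and PSMB8-AS1, also stayed below the 95th percentile of the negative controls on every array. The size of their differences is therefore uncertain. That of PSMC3IP, lower in the HER2-mutant line, can be understated. PSMB10 and PSMB8-AS1 had more signal in the HER2-mutant line, where the background was higher as well, so theirs can also be overstated. By role the 45 were 7 alpha subunits, 8 beta subunits, 5 ATPases and 3 other subunits of the base, 6 lid subunits, 4 activators or inhibitors, 7 assembly factors, and 5 genes that share only the letters. The last are the antisense RNAs PSMA3-AS1, PSMB8-AS1 and PSMG3-AS1, the recombination factor PSMC3IP, and PSME3IP1, a protein that binds PSME3. PSMC5, PSMD7, PSMD13 and PSME2 were not analysed here. Signals of different probe sets are not compared with each other.

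Of 10 listed epithelial markers, 6 passed the filter and 4 were not analysed here, with KRT5 at 17.13 to 17.44 as group means on the log2 scale. Between the single cultures EPCAM (-2.02) and ITGB4 (-1.41) were lower in the HER2-mutant line, DSP (1.08), CDH1 (0.72) and KRT14 (0.60) were higher, and KRT5 did not pass. The summed linear signal of the 6 was 280481 to 291697 in the HER2-mutant line, 274519 to 289944 in the PIK3CA-mutant line and 223045 to 230409 in the co-culture, lower on every co-culture array than on any other. KRT5, the brightest, made up most of that sum. In the co-culture KRT5 was below both single cultures, by -0.20 and -0.31 (larger limma p of both contrasts, adjusted 0.0335). The co-culture means of the other markers lay between the single cultures. Of 12 listed markers of blood, endothelial and fibroblast cells, 7 passed the filter, 1 was not analysed here, and PTPRC, PECAM1, CDH5 and PDGFRB were below it. The 7 that passed were CD3E, CD79A, CD14, VWF, COL1A1, COL1A2 and DCN. The summed linear signal of that list was 2169 to 2741 in the HER2-mutant line, 825 to 1038 in the PIK3CA-mutant line and 1160 to 1255 in the co-culture. In it, the fibroblast marker DCN was higher in the HER2-mutant line (10.70 against 7.07) and the monocyte marker CD14 lower (5.39 against 7.51). The T cell marker CD3E was higher as well (0.54, limma adjusted p 0.0227). The fibroblast markers COL1A1 (0.09) and COL1A2 (0.14) did not pass, nor did CD79A and VWF. In the HER2-mutant line CD14 (4.85 to 5.94) and CD3E (4.94 to 5.63) lay below the negative control percentile given above (6.73 to 7.12). The size of their differences is therefore uncertain. The part of these markers in the results below was not tested. In a mixed culture, fewer cells of a line and less RNA per cell cannot be told apart.

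The first question was how the single cultures differed. Nearly the whole standard proteasome was lower in the HER2-mutant line. Among the 28 subunits of both rings, the base and the lid (without PSMB10), 25 were lower, 1 was higher and 2 did not pass the test. Their median difference was -0.55 on the log2 scale, against 0.05 over all 12774 genes tested. The HER2-mutant line instead had more of the interferon-inducible activator PSME1 and of the base assembly chaperones PSMD5 and PSMD9. Counted over all 45 members, 30 were lower by limma (adjusted p under 0.05), or 66.7%, where 29.4% of all genes were lower. Higher were 7 members, or 15.6%, where 30% of all genes were higher. On 26 members the arrays of the HER2-mutant line all lay below those of the PIK3CA-mutant line, and on 6 all above, where 26.6% and 26.3% of all genes did so. The 28 subunits were set apart from PSMB10 after the values were seen, and all 28 were above the filter on all 12 arrays. Leaving out single arrays gave 23 to 25 lower subunits of 28. With quantile normalization 22 were lower and 1 was higher, with a median of -0.43.

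**Figure D1:**
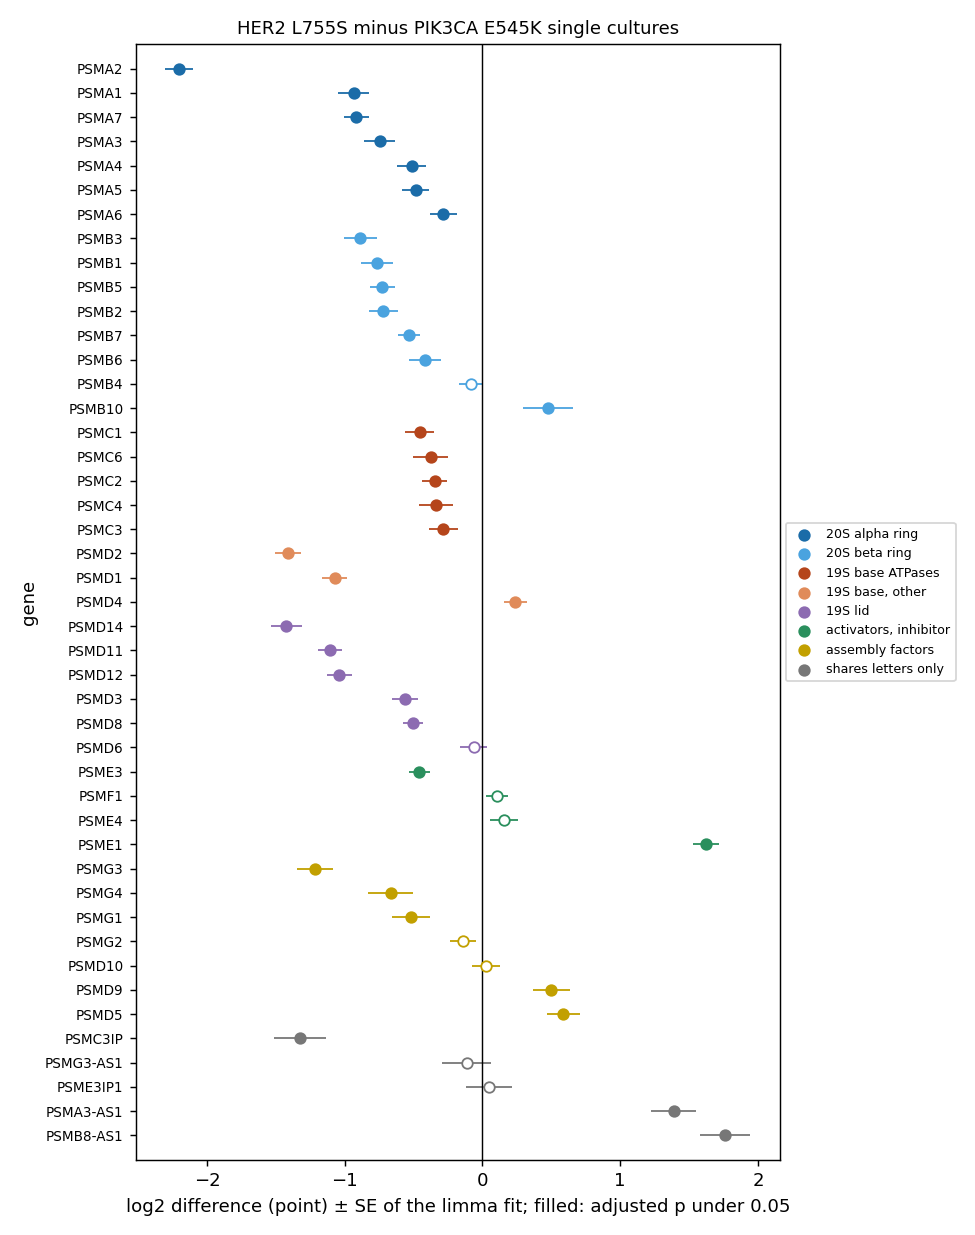
Log2 difference between the single cultures (x axis, HER2 L755S minus PIK3CA E545K) for each of the 45 members that passed the filter (y axis), with the standard error of the limma fit as bars and colours by role. Filled points passed the test, and open points did not. The alpha ring, the ATPases and most of the beta ring and lid lie left of 0, while PSME1, PSMD5 and PSMD9 lie to the right.

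In the alpha ring, all 7 genes had less signal in the HER2-mutant line, from -2.20 to -0.28. PSMA2, a structural alpha subunit, had the largest difference of all members. Its log2 signals were 11.24, 10.95, 11.24 and 10.84 on the HER2-mutant arrays, 13.21, 13.37, 13.34 and 13.16 on the PIK3CA-mutant arrays, and 12.77, 12.46, 12.63 and 12.76 in the co-culture. The 3 groups did not overlap, and the co-culture lay between the single cultures. The difference between the single cultures was -2.20 ± 0.10 (SE, limma adjusted p 9.04e-15), or 4.60-fold lower. PSMA1 (-0.94) and PSMA7 (-0.92) followed. PSMA6 was the least different (-0.28, limma adjusted p 0.0151), and its call was lost without PIK3CA-mutant replicate 1 (-0.22, adjusted p 0.0705), with quantile normalization (0.0908) and with arrays centred on the median (0.0783).

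The catalytic beta subunits were all lower in the HER2-mutant line. PSMB5, which cleaves after hydrophobic residues, had log2 signals of 11.98, 11.91, 11.97 and 12.28 in the HER2-mutant line, 12.78, 12.64, 12.75 and 12.88 in the PIK3CA-mutant line and 12.80, 12.67, 12.58 and 12.74 in the co-culture. The HER2-mutant arrays were all below the others, and the other groups overlapped. The difference between the single cultures was -0.73 ± 0.09 (SE, limma adjusted p 3.1e-07). PSMB7, with trypsin-like activity, had 12.27, 12.42, 12.27 and 12.33 in the HER2-mutant line, 12.86, 12.79, 12.76 and 13.00 in the PIK3CA-mutant line and 13.00, 13.03, 12.92 and 12.93 in the co-culture, with a difference of -0.53 between the lines. PSMB6, with caspase-like activity, had 11.37, 11.18, 11.58 and 11.68, then 11.84, 11.81, 11.96 and 11.89, and 12.17, 11.62, 11.76 and 11.88 in the same order, with a difference of -0.42. For both genes the HER2-mutant arrays were all below the PIK3CA-mutant ones. Among the structural beta subunits PSMB3 had 10.06, 10.47, 10.39 and 10.53 in the HER2-mutant line, 11.28, 11.38, 11.43 and 10.91 in the PIK3CA-mutant line and 11.24, 11.23, 11.27 and 11.15 in the co-culture. Its HER2-mutant arrays lay below all others, with a difference of -0.89 between the lines. PSMB1 (-0.77) and PSMB2 (-0.72) were lower as well. PSMB4 did not pass (-0.08, limma adjusted p 0.426).

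The immunoproteasome partners of these subunits went the other way. PSMB8, which takes the place of PSMB5, was 10.95 ± 0.23 in the HER2-mutant line and 9.24 ± 0.25 in the PIK3CA-mutant line, and PSMB9, which replaces PSMB6, was 8.84 ± 0.29 and 6.39 ± 0.33 (SD, n = 4 each). Neither pair of groups overlapped, and the differences were 1.70 and 2.45 by limma. In the PIK3CA-mutant line PSMB9 had 5.98 to 6.78, near the 95th percentile of the negative controls there (6.32 to 6.39). Its difference can therefore be understated. PSMB10, which replaces PSMB7 and is a member by the rule, was dim. Its signals were 4.40, 5.07, 5.20 and 5.41 in the HER2-mutant line, 4.34, 4.63, 4.52 and 4.68 in the PIK3CA-mutant line, and 4.72, 4.56, 4.60 and 4.49 in the co-culture. One HER2-mutant array was as low as the other groups, while the other three were above them. The difference of 0.48 passed narrowly (limma adjusted p 0.0288), and the call was lost without HER2-mutant replicate 2, 3 or 4 (0.0547, 0.0788 and 0.113) and without PIK3CA-mutant replicate 1 or 3 (0.0877 and 0.0549), and with quantile normalization (0.0867).

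**Figure D2:**
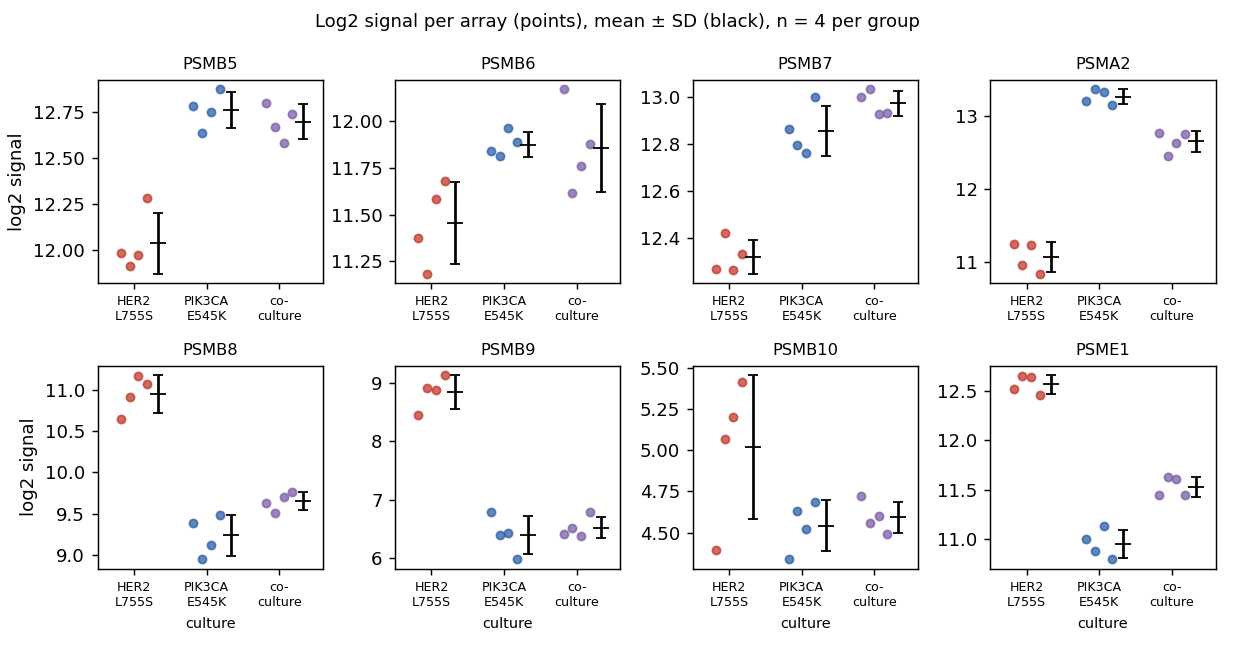
Log2 signal (y axis) on each array (points) in the 3 cultures (x axis), with mean ± SD beside them, n = 4 per group. PSMB5, PSMB6 and PSMB7 in the upper row are each replaced in the immunoproteasome by PSMB8, PSMB9 and PSMB10 below them. The HER2-mutant points are lowest for PSMB5, PSMB7 and PSMA2 and highest for PSMB8, PSMB9 and PSME1, and the groups overlap for PSMB10.

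In the base of the regulatory particle, the scaffold and ubiquitin-binding subunits PSMD2 and PSMD1 differed more than the ATPases. PSMD2 had log2 signals of 11.74, 11.70, 11.61 and 11.52 in the HER2-mutant line, 13.09, 12.95, 13.07 and 13.11 in the PIK3CA-mutant line and 12.82, 12.49, 12.52 and 12.31 in the co-culture, with no overlap between the 3 groups. Its difference between the single cultures was -1.41 ± 0.10 (SE, limma adjusted p 1.27e-11), and its linear signal was 2.66-fold lower. PSMD1 had 11.99, 11.82, 12.05 and 12.12 in the HER2-mutant line, 13.16, 12.95, 12.95 and 13.21 in the PIK3CA-mutant line and 12.62, 12.53, 12.39 and 12.60 in the co-culture, again without overlap and with a difference of -1.07 between the lines. The 5 ATPase genes were all lower, from -0.46 (PSMC1) to -0.29 (PSMC3). PSMC1 had 12.13, 11.80, 11.85 and 12.37 in the HER2-mutant line, all below the 12.58, 12.43, 12.42 and 12.56 of the PIK3CA-mutant line, and the co-culture, at 12.45, 12.24, 12.33 and 12.38, overlapped both. The calls of PSMC3 and PSMC4 did not hold without some single arrays. For PSMC3 the limma adjusted p rose from 0.0233 to 0.0562, 0.0618 and 0.0689 without HER2-mutant replicate 1, 2 or 3, and to 0.063 without PIK3CA-mutant replicate 4. For PSMC4 it rose from 0.0221 to 0.0994 without HER2-mutant replicate 2, and to 0.0711, 0.0595 and 0.0552 without PIK3CA-mutant replicate 2, 3 or 4. Both calls were also lost with quantile normalization (0.0939 and 0.0742) and with arrays centred on the median (0.102 and 0.0762). The ubiquitin receptor PSMD4 was the 1 standard subunit with more signal in the HER2-mutant line, by 0.24 (limma adjusted p 0.0159). That call was lost without HER2-mutant replicate 3 (0.0535) or PIK3CA-mutant replicate 2 (0.0547).

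Of the 6 lid genes, 5 were lower. PSMD14, the enzyme that cuts the ubiquitin chain from the substrate, had log2 signals of 10.90, 10.50, 10.95 and 10.65 in the HER2-mutant line, 12.19, 12.05, 12.34 and 12.14 in the PIK3CA-mutant line and 12.004, 11.57, 11.70 and 11.76 in the co-culture. The groups did not overlap, and the difference was -1.43 ± 0.11 (SE, limma adjusted p 1.49e-10), or 2.69-fold lower. The lid scaffold gene PSMD11 had 12.19, 12.22, 12.34 and 12.24 in the HER2-mutant line, 13.55, 13.24, 13.32 and 13.30 in the PIK3CA-mutant line and 13.32, 13.02, 13.11 and 13.03 in the co-culture, with the HER2-mutant arrays below all others. PSMD11 and PSMD12 differed by -1.10 and -1.04, and PSMD3 and PSMD8 by -0.56 and -0.50. PSMD6 did not pass (-0.06, limma adjusted p 0.607).

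Of the 4 activators and inhibitors, 1 was higher in the HER2-mutant line, 1 was lower and 2 did not pass. PSME1 encodes a subunit of the ring that opens the barrel without ATP, often together with immunoproteasomes. It had log2 signals of 12.53, 12.66, 12.64 and 12.46 in the HER2-mutant line, 11.00, 10.88, 11.13 and 10.79 in the PIK3CA-mutant line and 11.44, 11.62, 11.61 and 11.44 in the co-culture. The groups did not overlap, and the HER2-mutant line was higher by 1.62 ± 0.09 (SE, limma adjusted p 6.33e-13), or 3.08-fold. PSME3, the nuclear activator, was lower by limma, with a difference of -0.46 (12.92 ± 0.13 against 13.38 ± 0.04, SD, n = 4 each). PSME4 (0.16, limma adjusted p 0.187), an activator linked to histone degradation, and the inhibitor PSMF1 (0.11, 0.274) did not pass.

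Of the 7 assembly factors, 3 were lower and 2 higher in the HER2-mutant line. Of the 4 genes of the chaperones that build the core, PSMG1, PSMG3 and PSMG4 were lower in the HER2-mutant line, by limma, with differences of -0.52, -1.22 and -0.67, and PSMG2 did not pass (-0.14, adjusted p 0.208). PSMG1 had 9.53, 9.84, 9.45 and 9.86 in the HER2-mutant line, overlapping the 10.24, 10.50, 10.18 and 9.84 of the PIK3CA-mutant line, and 10.26, 10.34, 10.46 and 10.70 in the co-culture. PSMG3 had log2 signals of 9.41, 8.98, 8.92 and 9.04 in the HER2-mutant line against 10.25, 10.27, 10.39 and 10.31 in the PIK3CA-mutant line, without overlap, and 9.94, 9.84, 9.92 and 9.45 in the co-culture. On HER2-mutant replicate 2, PSMG4 (7.10) lay just below the 95th percentile of the negative controls (7.12), so its difference can be understated. Of the 3 chaperones of the base, PSMD5 and PSMD9 were higher. PSMD5 had 11.74, 11.59, 11.43 and 11.89 in the HER2-mutant line, 11.05, 11.08, 10.95 and 11.23 in the PIK3CA-mutant line and 10.86, 11.36, 10.94 and 11.05 in the co-culture. The HER2-mutant arrays stood above all others, by 0.59 ± 0.12 over the PIK3CA-mutant line (SE, limma adjusted p 0.000138). PSMD9 was higher by 0.50, again without overlap, and PSMD10 (0.02, adjusted p 0.852), known as gankyrin, did not pass. Nor did PAAF1 (-0.06, adjusted p 0.771), a further base chaperone that the rule does not name and that is counted among the partners below. Whether core and base chaperones differ from each other was not tested.

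Of the 5 genes that share only the letters, 2 were higher and 1 was lower in the HER2-mutant line. The antisense RNA PSMA3-AS1 had log2 signals of 9.10, 9.09, 8.64 and 8.49 in the HER2-mutant line and 7.69, 7.19, 7.23 and 7.65 in the PIK3CA-mutant line, with 7.82, 8.12, 7.84 and 8.10 in the co-culture between them. It was higher by 1.39 in the HER2-mutant line, where PSMA3 itself was lower (-0.75). PSMB8-AS1 had 5.91, 6.15, 5.84 and 6.41 in the HER2-mutant line, above the 4.43, 4.40, 4.23 and 4.19 of the PIK3CA-mutant line and the 4.51, 5.19, 4.37 and 4.48 of the co-culture. It was higher by 1.76 in the HER2-mutant line, where its sense partner PSMB8 was higher too. Whether these probe sets also read the gene on the other strand was not tested. PSMC3IP, which acts in homologous recombination, had 4.49, 4.24, 4.48 and 4.68 in the HER2-mutant line, below the 5.95, 5.46, 5.88 and 5.89 of the PIK3CA-mutant line and the 5.50, 5.26, 5.86 and 4.86 of the co-culture. It was lower by limma, with a difference of -1.33 between the lines. PSMG3-AS1 (-0.12) and PSME3IP1 (0.05) did not pass.

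The promoters of the members were read for motifs of factors linked to proteasome genes. RefSeq promoters (build GRCh38.p14, 250 bases before to 50 after a gene's start) were matched by symbol for 41 of the 47 members. The core of the antioxidant response element, which NFE2L1 and NFE2L2 bind, was searched as TGACNNNGC on both strands, and the box bound by the NF-Y factors as CCAAT on both strands. The response element core was found in 13 of 41 members (31.7%), against 16.1% of all 27305 genes in the table and 13.3% of all 35116 promoters of this length. It was found in 7 of 25 members that were lower in the HER2-mutant line, in 4 of 6 that were higher and in 2 of 8 not called. The 4 were PSME1, PSMD5, PSMD9 and the antisense RNA PSMA3-AS1. CCAAT was found in 20 of 41 members (48.8%), against 39.7% of all genes and 34.6% of all promoters. It was in 15 of the 25 lower members, 1 of the 6 higher ones (PSMA3-AS1) and 3 of the 8 not called. These are matches of letters. The sequences below are those of PSMA2, the member with the largest difference, of PSMD1 and PSMD12, the lower members with the largest differences that hold the response element core, and of PSME1, the higher member with the largest difference that holds it. They are read 5′ to 3′ along the gene, with matches to either motif in capitals, and no printed match overlaps another. PSMA2 lies at chr7:42932125-42932424 (minus strand), PSMD1 at chr2:231056617-231056916 (plus strand), PSMD12 at chr17:67366528-67366827 (minus strand) and PSME1 at chr14:24135944-24136243 (plus strand).
PSMA2: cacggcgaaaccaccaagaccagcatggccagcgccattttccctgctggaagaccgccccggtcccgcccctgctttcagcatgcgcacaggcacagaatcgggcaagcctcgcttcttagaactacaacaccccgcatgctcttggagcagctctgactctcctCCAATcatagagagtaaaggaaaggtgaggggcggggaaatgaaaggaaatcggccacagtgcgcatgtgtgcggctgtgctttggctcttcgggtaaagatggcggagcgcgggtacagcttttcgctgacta
PSMD1: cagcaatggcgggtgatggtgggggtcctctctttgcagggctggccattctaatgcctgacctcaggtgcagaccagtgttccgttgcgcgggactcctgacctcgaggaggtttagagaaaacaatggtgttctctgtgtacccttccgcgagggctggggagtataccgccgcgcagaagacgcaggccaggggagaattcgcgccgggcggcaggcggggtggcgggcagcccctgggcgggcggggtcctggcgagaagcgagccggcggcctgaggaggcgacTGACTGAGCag
PSMD12: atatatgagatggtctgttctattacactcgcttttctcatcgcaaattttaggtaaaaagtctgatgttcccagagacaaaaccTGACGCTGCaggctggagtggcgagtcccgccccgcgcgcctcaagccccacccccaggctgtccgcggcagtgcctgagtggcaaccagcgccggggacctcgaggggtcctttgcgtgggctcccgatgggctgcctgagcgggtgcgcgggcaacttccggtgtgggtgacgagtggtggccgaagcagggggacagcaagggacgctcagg
PSME1: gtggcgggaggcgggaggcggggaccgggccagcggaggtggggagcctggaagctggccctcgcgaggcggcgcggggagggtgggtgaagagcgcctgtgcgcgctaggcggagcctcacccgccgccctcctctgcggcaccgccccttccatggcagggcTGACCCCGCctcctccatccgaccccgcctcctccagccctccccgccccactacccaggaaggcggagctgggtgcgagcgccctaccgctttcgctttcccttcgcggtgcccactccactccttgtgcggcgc
The capitals are a CCAAT box in PSMA2, at position -84 from the start, and the response element core in the other three, all on the gene's own strand. It begins at -165 in PSMD12 and -86 in PSME1, and 40 bases after the start in PSMD1. Genes with less and genes with more signal in the HER2-mutant line both held it.

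**Figure D3:**
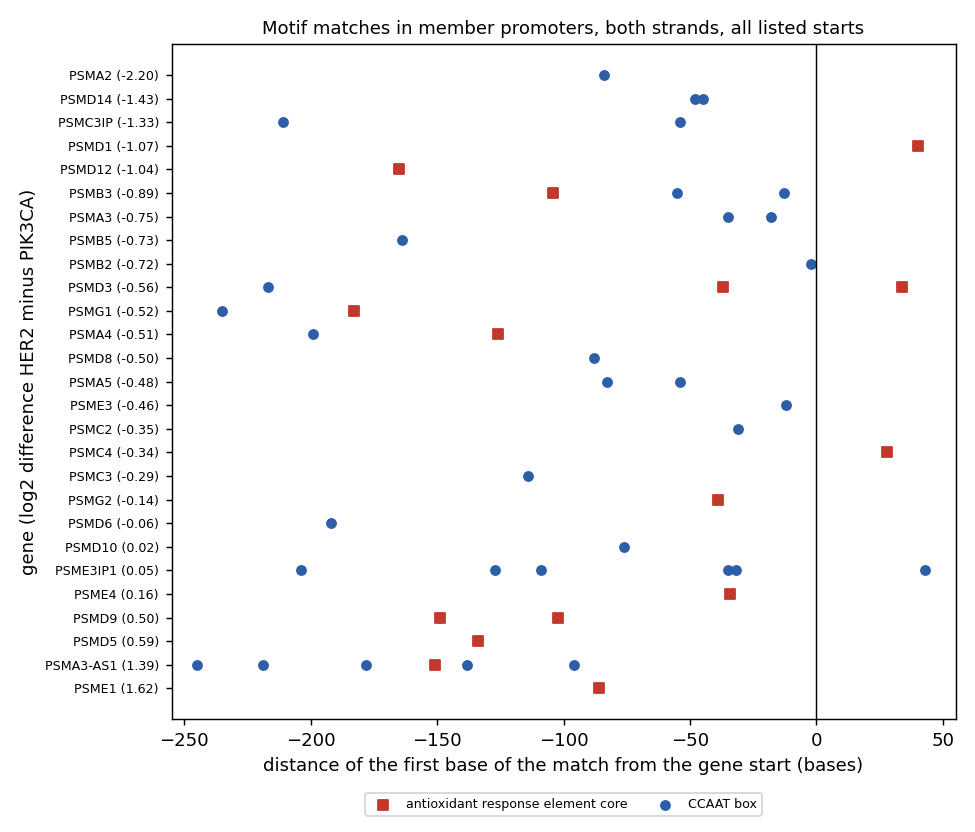
Matches of the antioxidant response element core (squares) and the CCAAT box (circles) by distance from the gene start in bases (x axis) in the promoters of members with a match (y axis), ordered by log2 difference between the single cultures, given in brackets. Squares occur at genes with negative and with positive differences, while 15 of the genes with circles are among those lower in the HER2-mutant line.

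The co-culture was then compared with its majority line, the HER2-mutant one. It also held about 25% PIK3CA-mutant cells, so differences between the lines enter this comparison as well. The standard proteasome was higher in the co-culture, in 24 of 28 subunits, with 1 lower (PSMD4), and a median difference of 0.49 against -0.05 over all genes. Over all members, 29 of 45 were higher by limma (64.4%), where 24.9% of all genes were, and 7 were lower (15.6%), where 26.0% of all genes were. All 14 standard subunits of the core were higher, between 0.30 (PSMA6) and 1.59 (PSMA2). PSMD14 was higher by 1.00, PSMD2 by 0.89, PSMD11 by 0.87, PSMB3 by 0.86 and PSMB5 by 0.66. PSMB4, not called between the single cultures, was higher in the co-culture by 0.32 (limma adjusted p 0.00342). Its log2 signals were 13.30, 13.33, 13.09 and 13.24 there, above the 12.80, 12.87, 12.99 and 13.03 of the HER2-mutant line, and 13.14, 12.82, 13.02 and 13.05 in the PIK3CA-mutant line. With quantile normalization that call was lost (0.20, adjusted p 0.0548), as was that of PSMA6 (0.20, 0.0871). Of the ATPases, PSMC1, PSMC4 and PSMC6 were higher, by 0.31, 0.36 and 0.39 (limma adjusted p 0.0179, 0.0175 and 0.0132). Each call was lost without some array, that of PSMC1 without HER2-mutant replicate 2 or 3 (0.0825 and 0.0731) or co-culture replicate 1 (0.0536) and with quantile normalization, median centring or no trend (0.12, 0.0538 and 0.0509), that of PSMC4 without HER2-mutant replicate 2 (0.081) and that of PSMC6 without co-culture replicate 2 (0.0652). All 4 core chaperones were higher, with PSMG1 at 0.77, PSMG3 at 0.70, PSMG4 at 0.44 and PSMG2 at 0.29. The call of PSMG4 was lost without HER2-mutant replicate 1, 2 or 3 (0.0704, 0.0853 and 0.0542) or co-culture replicate 3 or 4 (0.0901 and 0.124). With quantile normalization the calls of PSMG4 and PSMG2 were both lost (0.0523 and 0.0553). PSMD4, the lower one, stood at -0.23 (limma adjusted p 0.022), which did not pass without HER2-mutant replicate 3 (0.0703) or co-culture replicate 1 or 3 (0.0523 and 0.0902). In the opposite direction to the core, PSME1 differed by -1.04, PSMD5 by -0.61 and PSMD9 by -0.52, with no overlap between the groups. On 24 members the arrays of the co-culture were all above those of the HER2-mutant line, where 22.1% of all genes were, and on 7 all below, where 22.3% were. This comparison shares the HER2-mutant arrays with the one before, so a high or low value on them moves both.

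The co-culture was compared in the same way with the minority line, the PIK3CA-mutant one. Lower were 7 of 45 members (15.6%), close to the 14.6% of all genes. Higher were 3 (6.67%), where 11.1% of all genes were. The 7 were PSMA2 (-0.61), PSMD1 (-0.53), PSMD2 (-0.52), PSMG3 (-0.52), PSMD12 (-0.47), PSMD14 (-0.42) and PSME3 (-0.38). For each of them the co-culture arrays were all below the PIK3CA-mutant ones, as on 8 members in all, where 16.4% of all genes did so. On 2 members they were all above, where 11.9% did so. PSME1 was higher by 0.58 (limma adjusted p 6.1e-05), again without overlap. The other higher members were PSMA3-AS1 (0.53, limma adjusted p 0.0197) and PSMB4 (0.24, 0.0468). Higher members numbered 1 without PIK3CA-mutant replicate 2 or 3 or co-culture replicate 2 or 4. Without these in turn the adjusted p of PSMA3-AS1 was 0.0738, 0.07, 0.0629 and 0.0584. PSMB4 was lost without any of HER2-mutant replicate 3 (0.0511), PIK3CA-mutant replicate 2, 3 or 4 (0.175, 0.0786 and 0.0676) and co-culture replicate 1, 2 or 4 (0.102, 0.128 and 0.0823). The PSMB4 call was also lost with the replicate block (0.0516), quantile normalization (0.0656), no filter (0.0641) and no trend (0.122). The catalytic genes did not pass, with PSMB5 at -0.07 ± 0.09, PSMB6 at -0.02 ± 0.12 and PSMB7 at 0.12 ± 0.08 (SE, limma adjusted p 0.675, 0.942 and 0.312).

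**Figure D4:**
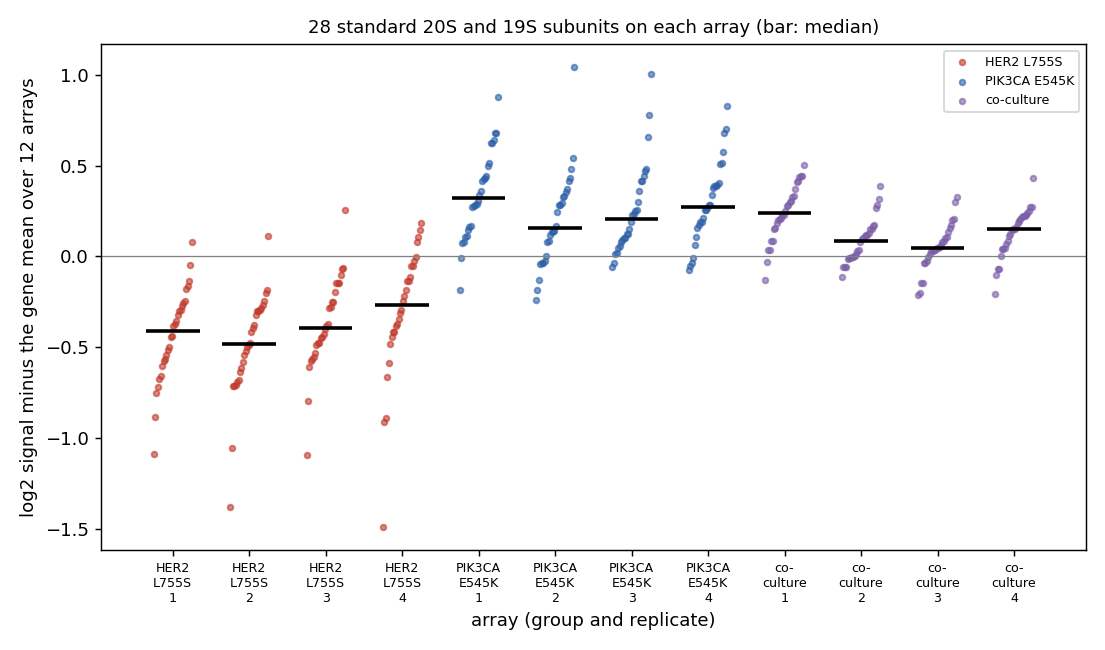
Log2 signal minus the gene's mean over the 12 arrays (y axis) for the 28 standard subunits (points) on each array (x axis, group and replicate), with the median as a bar. The medians lie between -0.48 and -0.27 in the HER2-mutant line, between 0.15 and 0.32 in the PIK3CA-mutant line and between 0.05 and 0.24 in the co-culture.

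Read array by array, the standard subunits differed together between the lines. The median deviation of the 28 from each gene's mean was -0.41, -0.48, -0.39 and -0.27 on the HER2-mutant arrays. It was 0.32, 0.15, 0.21 and 0.27 on the PIK3CA-mutant arrays and 0.24, 0.09, 0.05 and 0.15 in the co-culture. Every HER2-mutant array was thus below every other, while the other groups overlapped. For comparison, the same median over all genes tested lay between -0.02 and 0.03 on every array. Within a group a member's replicates had a median SD of 0.16 in the HER2-mutant line, 0.12 in the PIK3CA-mutant line and 0.14 in the co-culture, against 0.20, 0.16 and 0.17 over all genes.

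The co-culture was also set against an expected blend, the log2 of 75% of the linear HER2-mutant mean plus 25% of the PIK3CA-mutant mean. That blend takes the share of cells as the share of RNA. The co-culture held more core subunit RNA than the blend, in 13 of 14 standard core subunits, with a median of 0.41, and PSMA3 (0.24, limma adjusted p 0.0554) did not pass. In the base and lid, 6 of 14 were higher. With quantile normalization the calls of PSMA6, PSMC6 and PSMD8 were lost (limma adjusted p 0.176, 0.0566 and 0.163). Those of PSMA6 and PSMC6 were also lost without several single arrays, and that of PSMD12 with a blend of 65% (0.282). At 65%, 13 of the 28 standard subunits were above the blend, and at 50% 5 were. Leaving out single arrays gave 15 to 23 of the 28 standard subunits above the blend. Over all members, 23 were above the blend, or 51.1%, where 18.5% of all genes were, and 6 were below it, or 13.3%, where 22.3% of all genes were. A co-culture level on the PIK3CA-mutant side of the blend was common among genes that differed between the lines. From the PIK3CA-mutant mean to the HER2-mutant mean on the linear scale, the blend lies at 75% of the way. For 5743 genes called between the lines with a log2 difference of 0.5 or more, the median position was 29.4%. It was 31.7% for the 17 standard subunits chosen the same way. Whether these subunits exceed the blend by more than other genes do was not tested. PSMA2 was above the blend by 0.66 ± 0.09 (SE, limma adjusted p 2.53e-06), PSMG1 by 0.62, PSMB3 by 0.58, PSMD11 by 0.51, PSMB7 by 0.50 and PSMB5 by 0.44. PSMB6 was above it by 0.29 (limma adjusted p 0.0296), a call lost without HER2-mutant replicate 1 or 2 (0.0562 and 0.0853) and without co-culture replicate 1 or 4 (0.178 and 0.0657). It was also lost with quantile normalization (0.0645), median centring (0.0528), no trend (0.0685) and a blend of 65% (0.0685). Below the blend were PSME1 (-0.78 ± 0.09, limma adjusted p 3.61e-07), PSMD5 (-0.48), PSMD9 (-0.41), PSME4 (-0.27), PSMB8-AS1 (-1.16) and PSMA3-AS1 (-0.61). The call of PSME4 was lost without co-culture replicate 3 (0.105) or 4 (0.0526). With the blend at 50% of each line, 6 members were above it and 3 below. Of the excluded subunits, PSMB8 was below the blend by limma (-1.02) and so was PSMB9 (-1.99). In the co-culture PSMB9 had 6.38 to 6.78, near the 95th percentile of the negative controls there (6.37 to 6.66). The size of its difference is therefore uncertain.

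**Figure D5:**
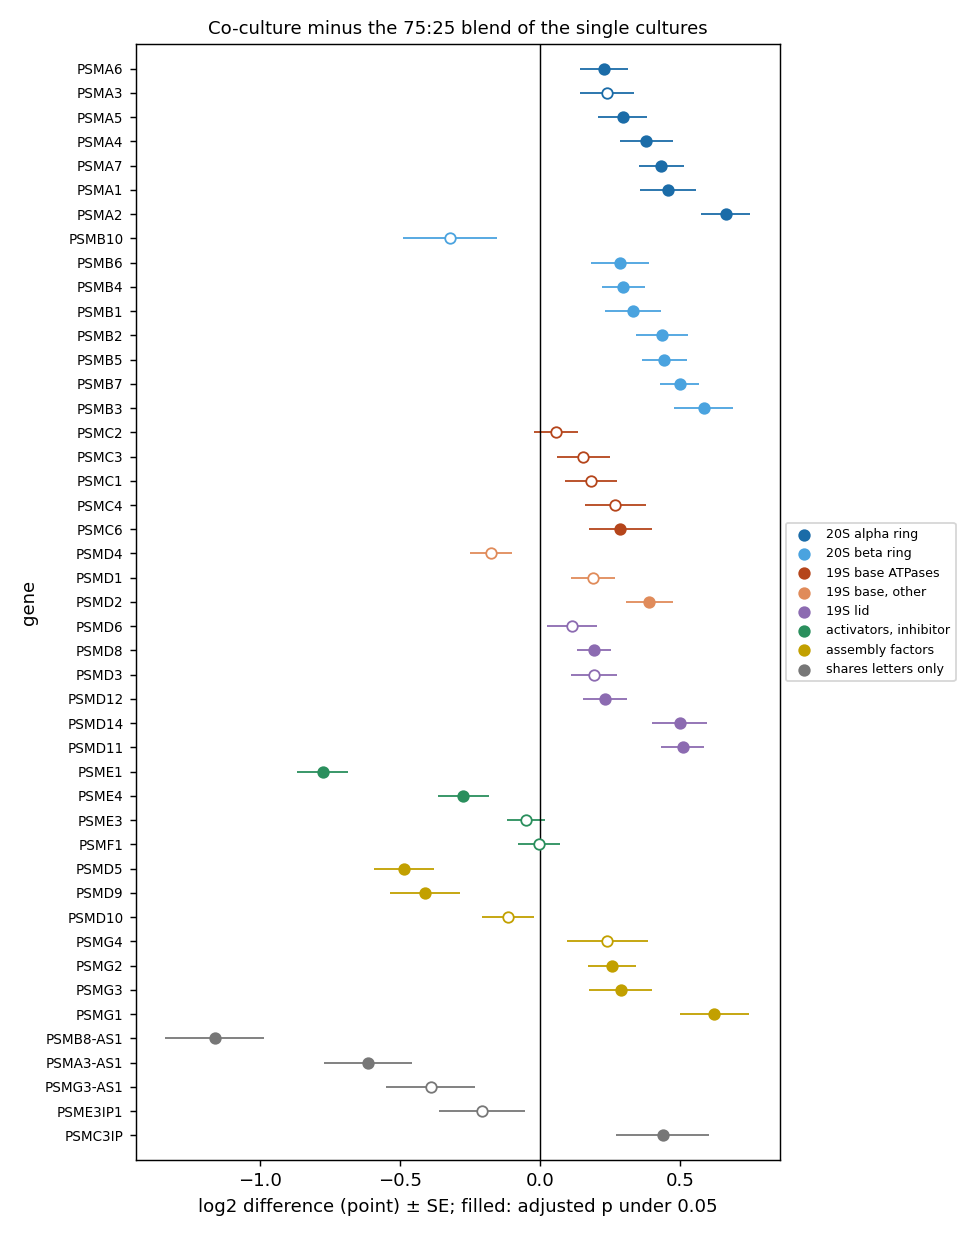
Log2 difference of the co-culture from the blend of 75% HER2-mutant and 25% PIK3CA-mutant signal (x axis) for the 45 members (y axis), with standard errors as bars and colours by role. Filled points passed the test. Core subunits other than PSMB10 lie right of 0, and PSME1, PSMD5 and PSMD9 lie left of it.

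A level outside both single cultures was asked for as well. By limma, 0 of 45 members lay above both or below both, where 1.01% and 0.845% of all genes did, and at an unadjusted p under 0.05 there was 1 member. That was PSMB4, with fitted differences of 0.32 and 0.24 from the HER2-mutant and PIK3CA-mutant lines. Its co-culture arrays overlapped the PIK3CA-mutant ones.

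Other genes of the pathway, from lists of proteasome partners, ubiquitin supply and transcription factors, were counted too. Of 11 proteasome partners tested, 7 (63.6%) were lower in the HER2-mutant line and 1 (9.09%) was higher, where 29.4% and 30% of all genes were. The core maturation factor POMP differed by -0.94, and its HER2-mutant arrays, at 12.11, 11.91, 11.95 and 11.94, were all below the 12.88, 12.91, 13.00 and 12.86 of the PIK3CA-mutant line. The deubiquitinases that bind the regulatory particle, USP14 and UCHL5, differed by -0.94 and -0.81, and AKIRIN2, which brings proteasomes into the nucleus, by -1.48. On HER2-mutant replicate 2, AKIRIN2 (6.86) lay below the 95th percentile of the negative controls (7.12), so its difference can be understated. The proteasome-binding protein ZFAND5 was the 1 that was higher (1.20, limma adjusted p 3.18e-09). In the co-culture, 6 partners (54.5%) were higher and 1 (9.09%) was lower than in the HER2-mutant line, where 24.9% and 26.0% of all genes were. Against the PIK3CA-mutant line 3 (27.3%) were lower, where 14.6% of all genes were, and 0 were higher, where 11.1% of all genes were. Of 11 genes of ubiquitin supply and delivery, 5 (45.5%) were lower and 2 (18.2%) higher in the HER2-mutant line, where 29.4% and 30% of all genes were. The ubiquitin-activating enzymes UBA1 and UBA6 differed by -0.84 and -1.53, while the ubiquitin gene UBB and the shuttle factor UBQLN2 were higher by 0.61 and 1.10. On HER2-mutant replicates 1 and 2, UBA6 (6.58 and 7.00) lay below the 95th percentile of the negative controls (7.00 and 7.12). Its difference can therefore be understated. Ubiquitin genes are near-identical in sequence, which leaves the UBB signal uncertain.

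Of 9 transcription regulators tested, the HER2-mutant line had more of 4 (44.4%) and less of 2 (22.2%), where 30% and 29.4% of all genes were higher and lower. NFE2L1 was higher by 0.41 ± 0.08 (SE, limma adjusted p 9.43e-05), with 14.10, 13.95, 13.93 and 14.13 in the HER2-mutant line, 13.61, 13.62, 13.59 and 13.67 in the PIK3CA-mutant line and 13.55, 13.76, 13.66 and 13.87 in the co-culture. NFE2L2 was higher by 0.52, NFYB by 0.76 and NFYC by 0.50, and NFYA was lower (-0.67). The arrays of NFE2L1 in the HER2-mutant line were above all others, in the line where the standard subunits were lower. The RNA of NFE2L1 does not report its activity, which is set by processing of the protein. The enzyme NGLY1, which takes part in that processing, was dim, with 6.94, 6.48, 5.92 and 6.98 in the HER2-mutant line, each below the 95th percentile of the negative controls of its array. The size of its difference is therefore not known. Its call (limma adjusted p 0.022) was lost without HER2-mutant replicate 3 (0.124) and without PIK3CA-mutant replicate 1 or 4 (0.0807 and 0.0536).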

How the data were processed

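RNA of 12 cultures, 4 per group, was measured on whole-transcript arrays. The submitters' processing notes name the Transcriptome Analysis Console, with which the authors summarized each probe set as a deposited log2 signal. Its version, background correction, normalization and genome build are not given in the sources used here. The medians of the arrays were 6.41 to 6.49, and the values were used as they stand. Arrays were grouped by their titles, 0 columns were left out, and the number of arrays limits the precision.

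The gene names were those of the series' probe annotation. Where a gene had more than 1 probe set the brightest stood for it (0 members). Genes above the 30th percentile of the array on at least 4 arrays were kept, 12774 in all. In limma 3.58.1 (R 4.3.3), all arrays entered 1 model of the 3 groups, and variances were moderated with a trend on signal. Tests were two-sided, with Benjamini-Hochberg adjustment over all 12774 genes and a threshold of 0.05. The standard error against the blend used delta-method weights. A gene outside both lines took the larger p of both contrasts. The script was tested on simulated data.

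Members, role classes and lists were chosen with earlier results of these data known. Named with the value of every array are the catalytic subunits, the 4 members with the largest differences in each direction of each comparison, and the largest in each class. Other members are named to account for the whole set, and pathway genes were picked with values in view. The replicate numbers do not pair the groups. The alternatives were quantile normalization, median centring, no or a stricter filter, no trend, a robust fit, the replicate block, the dimmest probe set, a margin of 0.5, other blends, and leaving out each array.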

Additional observations from a re-analysis of the deposited data

Results flagged for a closer look

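Per-array values were examined for the 19 members named by rule in the 3 groups, 57 sets of 4 arrays, with Dixon's test for a lone high or low array. Chance marks about 5% of such sets, and 2 were marked. The antisense RNA PSMB8-AS1 was 5.19 on co-culture replicate 2, where the other three co-culture arrays were 4.37 to 4.51. The recombination factor PSMC3IP was 5.46 on PIK3CA-mutant replicate 2, where the others were 5.88 to 5.95. Both genes share only letters with the proteasome, and both stayed below the 95th percentile of the negative controls on every array.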

How the results depend on the processing

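Of 180 called differences of members and pathway genes, 3489 of 3731 refits under alternatives other than the margin kept the call, 239 lost it and 3 changed sign. When a log2 difference had to exceed 0.5 in the test itself, 3 members were higher and 12 lower between the single cultures, 5 higher and 2 lower in the co-culture against the HER2-mutant line, and 0 higher and 0 lower against the PIK3CA-mutant line. With 65% HER2-mutant signal in the blend 15 members were above it, and with 50% 6 were above and 3 below, with a median of 0.07. At that 50%, the differences of PSMG3 (-0.0318), PSMD12 (-0.0422) and UCHL5 (-0.0275), called above the blend at 75%, turned, as did PSMD1 (-0.0936), not called there. Leaving out single arrays gave 5 to 7 higher and 28 to 30 lower between the single cultures, 26 to 30 and 6 to 8 against the HER2-mutant line, 1 to 3 and 7 to 10 against the PIK3CA-mutant line, and 16 to 26 and 6 to 8 against the blend.

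Other signs that turned belonged to differences that did not pass. PSMB4 between the single cultures became 0.0182 with quantile normalization. Against the PIK3CA-mutant line, quantile normalization turned PSMB3 (0.00152) and PSMD5 (0.0163), and centring turned PSMB3 (0.00141), PSMB6 (0.00996) and PSMD5 (0.00459). Leaving out single arrays there gave -0.0189 to 0.096 for PSMB10, -0.139 to 0.033 for PSMB3, -0.122 to 0.063 for PSMB6 and -0.126 to 0.0418 for PSMD5. The block on the replicate number left 30 members lower and 7 higher between the single cultures, and 9 lower and 2 higher in the co-culture against the PIK3CA-mutant line. Deviations of arrays with the same number correlated at -0.04 to 0.06, and 2 of 12 arrays correlated best with their own number, so the numbers were not taken as pairs.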

Other observations

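Where the co-culture stood relative to its 2 lines can be put as a percent of the linear difference between them. The position is 0% at the PIK3CA-mutant mean and 100% at the HER2-mutant mean. The blend with 75% HER2-mutant signal lies at 75%. For the 25 members called between the lines with a log2 difference of 0.5 or more, the median position was 27.7%, with quartiles of 11.1% and 42.7%. For 5743 genes chosen the same way it was 29.4%, with quartiles of 10.4% and 51.8%. PSMD1 lay at 58.8%, PSMD12 at 54.2%, PSMD2 at 48.6% and PSMA2 at 44.3%, while PSMB5 lay at 11.1%, PSMB3 at 3.88% and PSMB7 at -27.7%, where its co-culture arrays overlapped the PIK3CA-mutant ones and the difference from that line did not pass (0.12, limma adjusted p 0.312). PSME1 lay at 23.9%, and the excluded subunits PSMB8 and PSMB9 at 14.6% and 2.07%. These values rest on group means of 4 arrays, and differences between genes in position were not tested.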
